A study of Mus musculus with 6 samples.

Results

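The TGF-β and activin genes of the mouse colon were examined in mice with dextran sulfate sodium (DSS) colitis that received PBS or the gut bacterium *B. vulgatus*. The 10 genes were taken by symbol from the deposited count table of 18477 genes, and all 10 were present: 5 ligand genes (Tgfb1, Tgfb2, Tgfb3, Inhba and Inhbb), 2 receptor genes (Tgfbr1 and Tgfbr2), 2 genes of the latent TGF-β binding protein family (Ltbp1 and Ltbp2) and Tgfbi, a matrix gene that is induced by TGF-β. All 10 passed the filter on low counts, which left 14579 genes. Male C57BL/6 mice, 6 to 8 weeks old when obtained, drank water with 2% DSS over the last 7 days of a 14-day course of daily gavage, and DSS injures the colon epithelium. The DSS group (n = 3) was gavaged with PBS and the DSS+BV group (n = 3) with *B. vulgatus*. Each library held the RNA of 1 mouse colon, and both groups carried the DSS injury, so no library from uninjured colon enters the comparison. The mice were drawn at random from larger groups, per the series' design text.

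TGF-β ligands are secreted as latent complexes, in which the propeptide keeps the mature dimer inactive and a latent TGF-β binding protein ties it to the extracellular matrix. Once released by integrins or proteases, the ligand binds the type II receptor Tgfbr2, which recruits and phosphorylates the type I receptor Tgfbr1 and so starts SMAD2 and SMAD3 signalling. Activins are dimers of inhibin β subunits, encoded by Inhba and Inhbb, and signal through their own type I and type II receptors to the same SMAD proteins. In the gut, TGF-β is known for restraining T cell responses, for IgA switching and for matrix deposition by fibroblasts, and activin A is known as a ligand released in inflamed tissue.

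Of the 10 genes, Inhbb had the largest fitted difference between the groups and Inhba the next, and these are the paralogous subunit genes of activin B and activin A. Their promoters are shown because they differ in kind although the encoded subunits are related. Each line gives the 250 bases before the annotated start from RefSeq on GRCm38.p6, with matches in capitals to the TATA box (TATAAA), the GC box (GGGCGG), the AP-1 site (TGANTCA) and a SMAD element (CAGACA), searched on both strands. The Inhbb window is chr1:119422249-119422498 on the minus strand, and the Inhba window is chr13:16011601-16011850 on the plus strand.
Inhbb: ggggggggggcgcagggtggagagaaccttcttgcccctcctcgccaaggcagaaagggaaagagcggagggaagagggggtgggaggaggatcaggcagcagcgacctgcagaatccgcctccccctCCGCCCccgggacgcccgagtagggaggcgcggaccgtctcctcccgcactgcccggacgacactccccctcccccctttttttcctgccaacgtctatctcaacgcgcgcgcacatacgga
Inhba: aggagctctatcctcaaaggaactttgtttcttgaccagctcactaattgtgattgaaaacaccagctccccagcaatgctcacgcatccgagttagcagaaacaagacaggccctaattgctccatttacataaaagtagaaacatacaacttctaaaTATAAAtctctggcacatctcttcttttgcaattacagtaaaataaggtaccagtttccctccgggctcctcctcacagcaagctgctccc
The Inhbb window had 68.0% G and C, with 1 GC box, read on the opposite strand, and no TATA box. The Inhba window had 43.2% G and C, with 1 TATA box and no GC box. Over all 32851 windows of this length in the RefSeq set, the median was 52.4% G and C, 32.7% held a GC box and 12.4% held a TATA box. No match to AP-1 or the SMAD element lay in either window, against 6.75% and 17.1% of all windows. A match of letters is not evidence of a bound site. The annotated Inhba gene reaches further upstream than this window, and 9 of the 10 genes were matched in the promoter set.

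On GRCm38.p6, Inhbb spans chr1:119415463-119422248 and Inhba chr13:16004256-16031609. Tgfb1 spans chr7:25687002-25705077, Tgfb2 chr1:186622787-186709697 and Tgfb3 chr12:86056743-86079041. The receptor genes are at chr4:47353222-47414926 (Tgfbr1) and chr9:116087695-116175363 (Tgfbr2). Ltbp1 is at chr17:75005480-75392512, Ltbp2 at chr12:84783212-84876558 and Tgfbi at chr13:56609586-56639359. In the GENCODE M21 annotation, 12.42% of the exon bases of Tgfb3, 9.34% of those of Ltbp2 and 2.14% of those of Tgfb2 overlap a gene on the opposite strand. Whether counting used strand is not given in the sources used here, so reads of these 3 genes and of their antisense partners may not be separable. The other 7 share no exon bases with another gene, and all 10 had whole-number expected counts in every library.

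Expected counts summed to between 15293276 and 17254343 per library. Expression is given as CPM, counts scaled to 1 common library total after TMM adjustment, and a negative log2 fold change means a lower level in DSS+BV than in DSS. As in the methods of the study, a call needed both an adjusted p-value below 0.05 and a log2 fold change of more than 1 in size. Colon markers were abundant in every library, with the summed level of 12 epithelial markers between 11130 and 20220 CPM in the DSS group and between 19430 and 39130 CPM in the DSS+BV group. The 7 squamous markers summed to at most 3.73 CPM. Libraries did not part by treatment alone: DSS 3 had the highest value for 7 of the 10 genes, and DSS+BV 2 and DSS+BV 3 had the lowest for 4 each. The 8 B cell and plasma cell markers summed to 554 to 1656 CPM in the DSS mice and to 247 to 1181 CPM in the DSS+BV mice, highest in DSS 3 and DSS+BV 1, and their part in the values below was not tested.

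All 10 genes had a lower fitted value in the DSS+BV group, and none was called with edgeR's quasi-likelihood test. Lower fitted values were found for 51.5% of all tested genes, and edgeR called 0.0892% of tested genes as lower and 0% as higher. At an unadjusted edgeR p-value under 0.05, 2 of the 10 were lower (Inhbb and Ltbp1), against 9.12% of all tested genes, and 0 were higher, against 3.4%. With DESeq2, the test of the study, 1 of the 10 was called lower, Inhbb, against 1.73% of the genes it tested, and 0 were called higher, against 0.279%. The groups did not overlap for 2 of the 10, Inhbb and Ltbp1, both lower in DSS+BV, against 11.3% of all tested genes in that direction. The median log2 fold change of the 10 was -0.49, against -0.01 over all tested genes. The 10 genes were chosen with earlier results of these data known, so these counts are a description.

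**Figure D1:**
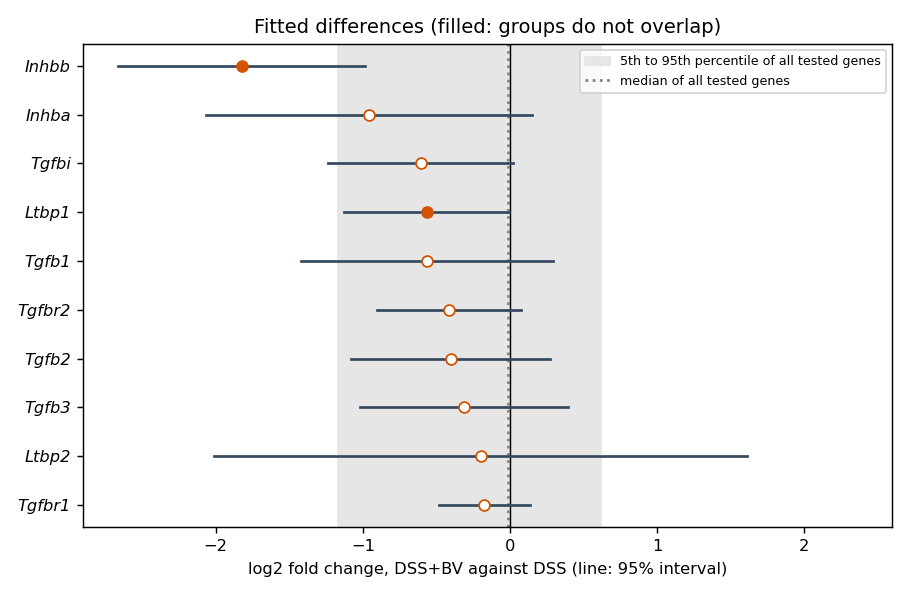
Log2 fold change of DSS+BV against DSS (x axis) for each of the 10 genes (y axis), with 95% intervals from the edgeR fit as lines, the range from the 5th to the 95th percentile of all tested genes shaded and their median dotted. All 10 points lie left of 0, Inhbb at -1.82 lies outside the shaded range, and the intervals of Inhbb and Ltbp1 leave out 0.

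Inhbb, which encodes the β subunit of activin B, was at 8.14, 11.9 and 19.2 CPM in DSS mice 1, 2 and 3, against 4.09, 3.63 and 3.35 CPM in DSS+BV mice 1, 2 and 3. Every DSS+BV mouse was below every DSS mouse, and the lowest DSS mouse was at 8.14 CPM against 4.09 CPM in the highest DSS+BV mouse. Means were 13.1 ± 5.63 CPM for DSS and 3.69 ± 0.373 CPM for DSS+BV (SD, n = 3 each), so the spread was wide in the DSS group and narrow in the DSS+BV group. This is a log2 fold change of -1.82 (standard error, SE, 0.352, 95% interval -2.66 to -0.98), or a 3.54-fold lower mean level. The adjusted p-value was 0.186 with edgeR, where the gene ranked 114th by p-value among all tested genes, and 0.000612 with DESeq2. Over all settings tried it ran from 0.000612 to 0.870, the latter with DSS+BV 2 left out. Leaving out DSS 3 gave the smallest size, a log2 fold change of -1.44.

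Inhba, which encodes the β subunit of activin A, was at 5.45, 20.5 and 14.8 CPM in DSS mice 1, 2 and 3, against 6.27, 6.50 and 8.16 CPM in DSS+BV mice 1, 2 and 3. The groups overlapped, since DSS 1 had the lowest value of the 6 libraries while DSS 2 and DSS 3 had the highest. The means were 13.6 ± 7.58 CPM and 6.97 ± 1.03 CPM (SD, n = 3 each), and the log2 fold change was -0.96 (SE 0.463, 95% interval -2.06 to 0.15, adjusted p = 0.454 with edgeR). Single DSS mice moved this value both ways: the log2 fold change was -0.54 without DSS 2 and -1.33 without DSS 1. The DSS mice also ranked differently for the subunit genes, with DSS 3 highest for Inhbb and DSS 2 highest for Inhba.

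Of the 3 TGF-β ligand genes, none separated the groups. Tgfb1, the main isoform of immune cells, was at 29.5, 21.3 and 44.4 CPM in DSS mice 1, 2 and 3, against 30.8, 18.0 and 15.6 CPM in DSS+BV mice 1, 2 and 3. DSS+BV 1 lay within the DSS range and the other two DSS+BV mice lay below it. Its fitted log2 fold change was -0.56 (SE 0.359, edgeR adjusted p = 0.554), and it was -0.24 without DSS 3 and -0.90 without DSS+BV 1.

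Tgfb2, an isoform of stromal and epithelial cells, was at 6.11, 9.01 and 9.67 CPM in DSS mice 1, 2 and 3, against 7.26, 6.75 and 4.74 CPM in DSS+BV mice 1, 2 and 3. DSS 1 lay inside the DSS+BV range, and the fitted difference was -0.40 on the log2 scale (SE 0.284, edgeR adjusted p = 0.591). Tgfb3, known from mesenchymal cells, was at 14.97, 14.67 and 16.01 CPM in DSS mice 1, 2 and 3, against 17.7, 10.6 and 8.41 CPM in DSS+BV mice 1, 2 and 3. Its DSS mice differed little (coefficient of variation 4.63%), and the DSS+BV mice lay on both sides of them (39.9%). For Tgfb3 the fitted value was -0.31 (SE 0.297, edgeR adjusted p = 0.685), and it was -0.67 without DSS+BV 1 and -0.10 without DSS+BV 3.

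The receptor genes had the smallest log2 ranges over the 6 libraries of the 10, at 0.34 for Tgfbr1 and 0.70 for Tgfbr2. Tgfbr1, the type I receptor, was at 66.6, 81.4 and 82.1 CPM in DSS mice 1, 2 and 3, against 68.1, 64.9 and 71.0 CPM in DSS+BV mice 1, 2 and 3. Its log2 fold change was -0.17 (SE 0.130, edgeR adjusted p = 0.613), with a 95% interval from -0.49 to 0.14. Tgfbr2, the type II receptor that binds the ligand, was at 284, 182 and 295 CPM in DSS mice 1, 2 and 3, against 196, 188 and 187 CPM in DSS+BV mice 1, 2 and 3. Only DSS 1 and DSS 3 stood above 196 CPM, and DSS 2 was the lowest of the 6 libraries. The DSS+BV mice differed by a coefficient of variation of 2.51%, against 24.7% in the DSS mice. For Tgfbr2 the log2 fold change was -0.41 (SE 0.204, 95% interval -0.90 to 0.07, adjusted p = 0.457 with edgeR).

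Ltbp1, whose product binds latent TGF-β and anchors it to matrix fibres, was at 51.1, 49.1 and 76.9 CPM in DSS mice 1, 2 and 3, against 47.8, 32.0 and 39.9 CPM in DSS+BV mice 1, 2 and 3. The groups did not overlap, but the lowest DSS mouse and the highest DSS+BV mouse were close, at 49.1 and 47.8 CPM. The log2 fold change was -0.57 (SE 0.235, edgeR adjusted p = 0.398), and -0.33 without DSS 3. Ltbp2, a microfibril protein that belongs to this family by its structure but does not bind latent TGF-β, was at 3.11, 2.11 and 5.47 CPM in DSS mice 1, 2 and 3, against 6.86, 1.21 and 1.26 CPM in DSS+BV mice 1, 2 and 3. DSS+BV 1 had the highest value and its group mates the lowest, so the log2 fold change of -0.20 (SE 0.760, edgeR adjusted p = 0.930) had no stable sign. It was -1.52 without DSS+BV 1, and 0.25 without DSS 3, 0.19 without DSS+BV 2 and 0.18 without DSS+BV 3.

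Tgfbi encodes a secreted matrix protein that binds collagens and integrins. It was at 166, 142 and 253 CPM in DSS mice 1, 2 and 3, against 145, 95.7 and 128 CPM in DSS+BV mice 1, 2 and 3. The groups overlapped only through DSS 2 and DSS+BV 1, which were at 142 and 145 CPM. The log2 fold change was -0.61 (SE 0.263, 95% interval -1.23 to 0.02, adjusted p = 0.408 with edgeR), and -0.32 without DSS 3.

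**Figure D2:**
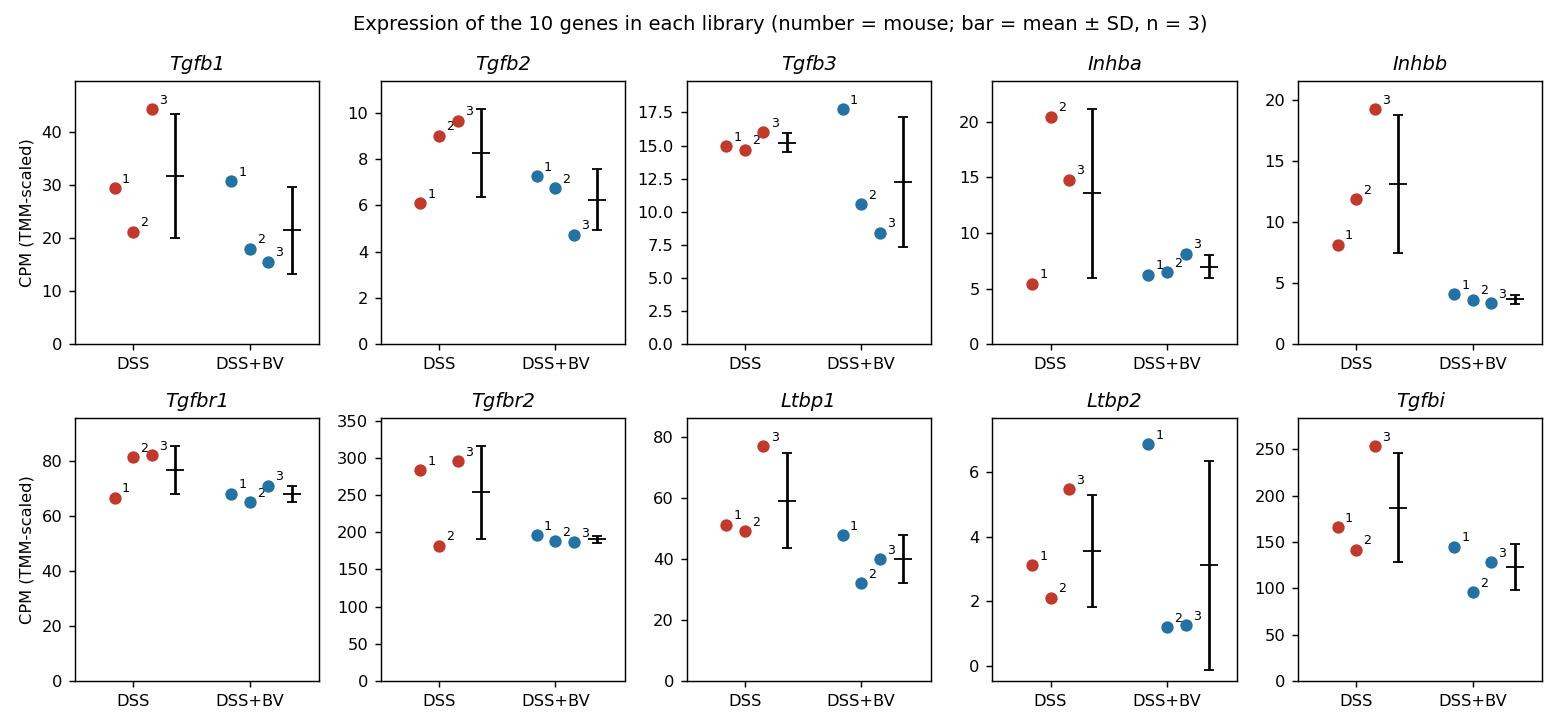
CPM (y axis, linear) of each of the 10 genes in the DSS libraries (red) and the DSS+BV libraries (blue), with the mouse number at each point and the mean ± SD (n = 3) beside each group. Inhbb is at 8.14 CPM or more in every DSS library and at 4.09 CPM or less in every DSS+BV library, while Ltbp2 is highest in DSS+BV 1 at 6.86 CPM.

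Across libraries, the 10 genes did not follow a single pattern. Relative to the mean of the 6 libraries on the log2 scale, the median of the 10 genes was 0.17, 0.09 and 0.69 in the DSS mice, in order, and -0.02, -0.47 and -0.41 in the DSS+BV mice. DSS+BV 1 therefore lay nearer to DSS 1 and DSS 2 than to its group mates. The range between the highest and the lowest library was smallest for Tgfbr1, at 0.34, and largest for Inhbb, at 2.48, followed by Ltbp2 at 2.39 and Inhba at 1.89.

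**Figure D3:**
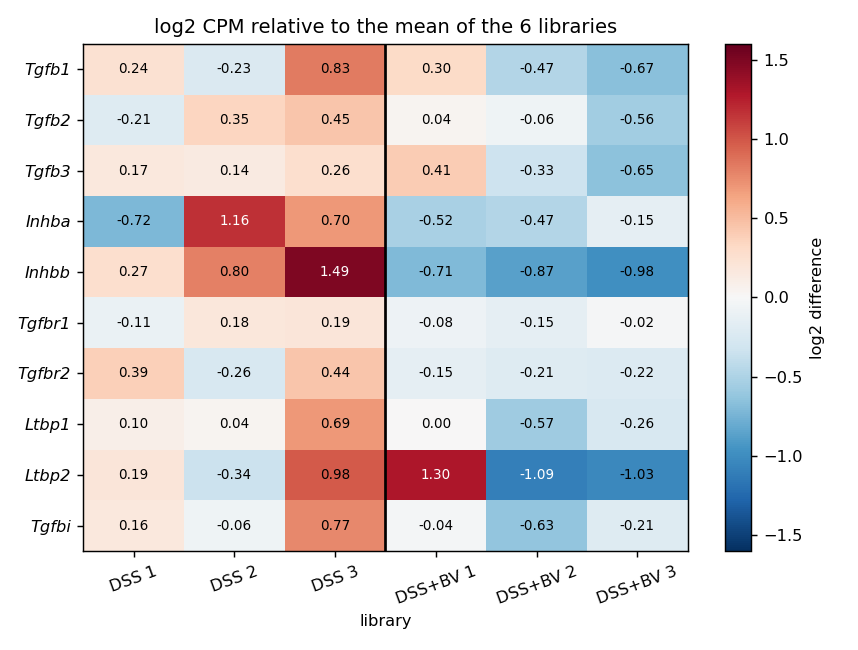
Log2 CPM of each gene (rows) in each library (columns) relative to the gene's mean over the 6 libraries, red above and blue below, with the value in each cell and a line between the DSS and DSS+BV libraries. DSS 3 is red for all 10 genes, from 0.19 for Tgfbr1 to 1.49 for Inhbb, and DSS+BV 2 and DSS+BV 3 are blue for all 10.

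Levels can be compared between genes only per length, so CPM was divided by the kilobases of exon in the GENCODE M21 annotation. On this scale Tgfbi was the highest of the 10, at 49.6 ± 15.6 CPM per kb in the DSS group and 32.58 ± 6.602 CPM per kb in the DSS+BV mice (SD, n = 3 for each). Tgfbr2 followed at 31.0 ± 7.64 and 23.2 ± 0.584 CPM per kb, and Tgfbr1 at 11.7 ± 1.34 and 10.4 ± 0.466 CPM per kb. Among the ligands, Tgfb1 was at 6.29 ± 2.32 CPM per kb in the DSS group, Tgfb3 at 4.50 ± 0.208, Inhbb at 3.07 ± 1.32, Inhba at 2.12 ± 1.19 and Tgfb2 at 1.43 ± 0.327. In the DSS+BV group the same genes were at 4.26 ± 1.62, 3.62 ± 1.44, 0.867 ± 0.0876, 1.09 ± 0.161 and 1.08 ± 0.230 CPM per kb. Ltbp1 lay between Tgfb1 and Tgfb3 in both groups, and Ltbp2 was the lowest in both, at 0.436 ± 0.211 and 0.380 ± 0.397 CPM per kb. Tgfbi, Tgfbr2, Tgfbr1 and Tgfb1 kept this order in each of the 6 libraries with no overlap between neighbours, whereas the ranges of Tgfb1 and Ltbp1, of Ltbp1 and Tgfb3, and of Inhba and Tgfb2 overlapped in both groups. Inhbb stood in position 7 of the 10 in the DSS group and in position 9 in the DSS+BV group, although the ranges of Tgfb2, Inhbb and Ltbp2 overlapped there.

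Ratios of CPM within a library were compared for 5 pairs of related genes. The lengths of both genes enter each ratio and cancel only in its difference between the groups. The log2 ratio of Inhba to Inhbb was -0.57, 0.78 and -0.37 in the DSS mice, in order, and 0.60, 0.82 and 1.253 in the DSS+BV mice. DSS 2 lay within the range of the DSS+BV mice, and the mean was higher by 0.95 in the DSS+BV group (two-sided exact permutation test, p = 0.2, 0.875 after Benjamini-Hochberg adjustment over 5 ratios). The difference for Tgfb2 to Tgfb1 was 0.17, for Tgfb3 to Tgfb1 0.18, for Tgfbr1 to Tgfbr2 0.21 and for Ltbp2 to Ltbp1 0.00, with exact permutation p-values between 0.5 and 1. With 1 library left out, the difference for Ltbp2 to Ltbp1 lay between -0.64 (without DSS+BV 1) and 0.39 (without DSS+BV 3). None passed, and 0.1 is the smallest p-value this design allows.

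The other genes of the pathway were taken from a list of 71, of which 70 were in the table and 65 passed the filter. This list was chosen with earlier results of these data known, so its counts are a description. With edgeR none of the 65 was called; at an unadjusted p-value under 0.05, 18 were lower and 1 was higher, against 9.12% and 3.4% of all tested genes. With DESeq2, 8 were called lower (Col1a1, Col3a1, Dcn, Eln, Emilin1, Il11, Lox and Tgfbr3) and none higher, against the 1.73% of lower calls among all genes it tested. Fitted values were lower for 46 and higher for 19, with a median log2 fold change of -0.20. The groups did not overlap for 20 genes in the lower direction, against 11.3% of all tested genes, and for 1 gene in the higher direction, against 6.37%.

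For the genes of latency and activation the median was -0.59 on the log2 scale, and 11 of 12 had a lower fitted value. Emilin1, which restrains maturation of the TGF-β precursor, was at 120 ± 30.6 CPM in DSS mice and 51.3 ± 7.75 CPM in DSS+BV mice (SD, n = 3 each), which gave a fitted difference of -1.22 on the log2 scale (adjusted p = 0.173 with edgeR and 0.000700 with DESeq2). Ltbp3, a carrier that is secreted together with latent TGF-β, had a log2 fold change of -0.98 (edgeR adjusted p = 0.243). Fbn1, the microfibril protein to which these carriers attach, had one of -1.02 (edgeR adjusted p = 0.273). With DESeq2 the adjusted p-values were 0.019 for Ltbp3 and 0.02855 for Fbn1. The DESeq2 log2 fold changes, -0.961 and -0.996, were not more than 1 in size, so neither was called. The groups did not overlap for either gene. Fbn2, named after its values were seen, was the 1 gene of the 12 with a higher value, at 1.91 ± 0.376 CPM and 3.41 ± 0.417 CPM (SD, n = 3 each), and its groups did not overlap (log2 fold change 0.84, edgeR adjusted p = 0.358).

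Among the other receptors and co-receptors, 4 of 9 had a lower fitted value, and the median was 0.13. Tgfbr3, the co-receptor betaglycan that presents TGF-β2 and also binds inhibin, was at 137.5, 81.5 and 145 CPM in DSS mice 1, 2 and 3, against 67.5, 54.7 and 43.2 CPM in DSS+BV mice 1, 2 and 3. Its log2 fold change was -1.14 (SE 0.269, adjusted p = 0.245 by edgeR and 0.0159 by DESeq2). Eng, the endothelial co-receptor endoglin, had a log2 fold change of -0.67 (edgeR adjusted p = 0.300), also without overlap between the groups. Acvr2a, a type II receptor of activins, had one of 0.32 (edgeR adjusted p = 0.456) with overlapping groups.

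Of the 3 tested genes among the other ligands, Inha, the inhibin α subunit that pairs with the activin subunits, had a log2 fold change of -0.89 (edgeR adjusted p = 0.393) and groups that did not overlap, at 2.92 CPM or more and at 2.24 CPM or less. Lefty1, an antagonistic ligand, and Gdf11 had values of -0.23 and -0.16. The remaining 5 listed ligands were Inhbc, Nodal, Mstn and Lefty2, which reached at most 5 counts in any library, and Inhbe, which had no row. Of the 5 extracellular antagonists, the proteoglycan gene Dcn was at 628, 680 and 1002 CPM in DSS mice 1, 2 and 3, against 485, 323 and 278 CPM in DSS+BV mice 1, 2 and 3 (log2 fold change -1.09, adjusted p = 0.285 with edgeR and 0.0245 with DESeq2). Wfikkn2 and Fstl3, a follistatin-like binder of activin, had log2 fold changes of -0.32 and -0.20. Fst, the activin antagonist follistatin, was named after its values were seen: it was at 2.81, 5.97 and 4.08 CPM in DSS mice 1, 2 and 3, against 0.923, 7.65 and 11.7 CPM in DSS+BV mice 1, 2 and 3, so DSS+BV mice held both the lowest and the highest values.

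For the SMAD proteins and their regulators the median was -0.04, with 11 of 17 fitted values lower. Ldlrad4, an inhibitor of SMAD activation at the receptor, had a log2 fold change of -0.85 (adjusted p = 0.245 with edgeR and 0.0232 with DESeq2). Its DESeq2 log2 fold change, -0.83, was not more than 1 in size. The groups did not overlap for Ldlrad4, whereas those of Smad4, the common partner SMAD (-0.79), and of the ubiquitin ligase gene Nedd4l (-0.38) overlapped. The transcriptional targets had a median of -0.44, and in 10 of 19 tested genes the DSS+BV values all lay below the DSS values, against 11.3% of all tested genes. These targets were also listed with earlier results of these data known, so the count is a description. Col3a1, a fibrillar collagen, had the smallest edgeR p-value of the list (log2 fold change -1.78, adjusted p = 0.0833). The collagen crosslinking enzyme Lox had a log2 fold change of -1.89 (edgeR adjusted p = 0.135), and the collagen gene Col1a1 one of -1.32 (edgeR adjusted p = 0.166). These collagen genes and Lox are also general products of fibroblasts, and targets such as Postn (-0.13), Acta2 (-0.32) and Ccn2 (0.29), named after their values were seen, had small or opposite values.

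**Figure D4:**
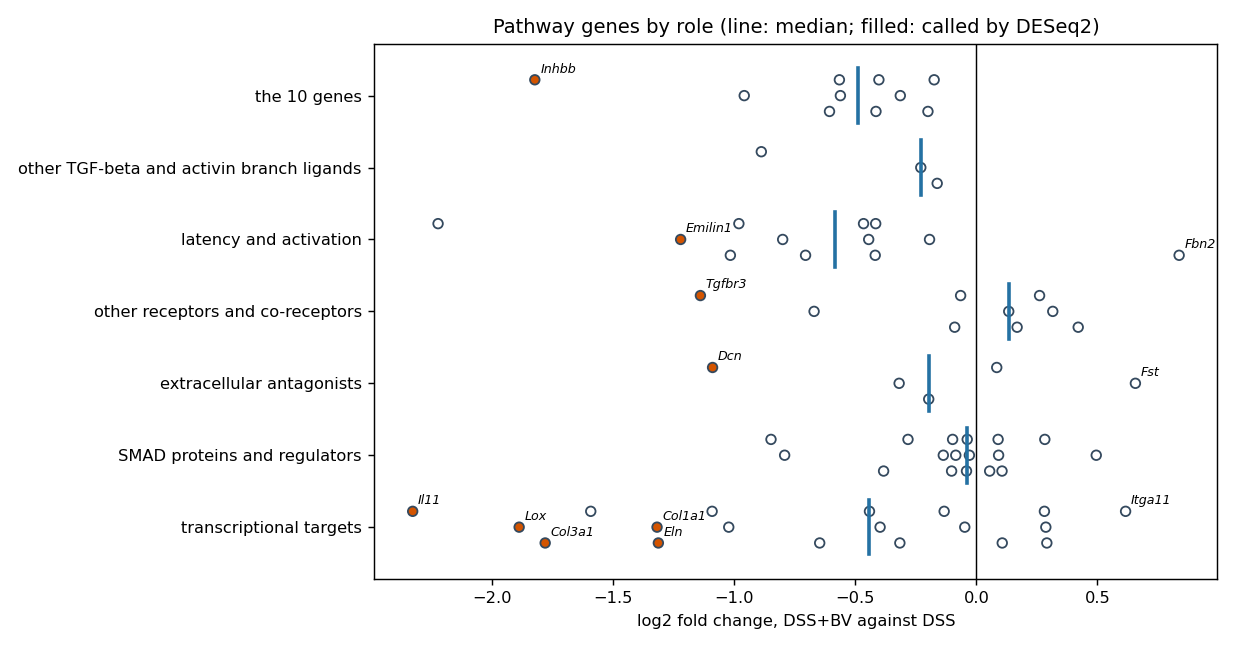
Log2 fold change of DSS+BV against DSS (x axis) for the 10 genes and for the 65 other tested pathway genes by role (rows), with the median of each row as a line and genes called by DESeq2 filled; edgeR called none. The 10 genes have their median at -0.49, latency and activation genes at -0.59, and SMAD genes near 0 at -0.04.

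Since RNA came from whole colon, fewer cells of a type and less RNA per cell cannot be told apart. The fibroblast markers (8 of 8 in the table, none at 0) summed to 534 to 748 CPM in the DSS group and 374 to 486 CPM in the DSS+BV group, and the blood endothelial markers (8 of 8, none at 0) to 425 to 574 CPM and 293 to 371 CPM. Neither sum overlapped between the groups. Taken singly, 2 of the 8 fibroblast and 5 of the 8 endothelial markers had groups that did not overlap. All of these were lower in DSS+BV, against 11.3% of all tested genes. The smooth muscle markers (8 of 8) overlapped, at 2271 to 2733 CPM and 1999 to 2971 CPM, as did the T cell markers (9 of 10 in the table), at 40.4 to 88.2 CPM and 39.8 to 89.8 CPM. Of the 12 epithelial markers, 10 had a higher fitted value in DSS+BV and 2 a lower one, against 51.5% lower among all tested genes. For 4 of the 12 the groups did not overlap, all higher, against 6.37% of all tested genes. The epithelial sum overlapped between the groups. The part of these sums in the values of the 10 genes was not tested, and the marker lists were chosen with earlier results of these data known. The neutrophil markers (10 of 10) summed to 217 to 1028 CPM and 31.2 to 326 CPM, overlapping through Ly6g, while 8 of the 9 that were tested had groups that did not overlap, all lower (11.3% of all tested genes), and edgeR called 6 of them (0.0892% of all tested genes). Mesothelial markers other than Krt19, which epithelium also expresses, reached at most 3.53 CPM. The distal colon genes (6 of 7) varied widely within both groups, from 6.13 CPM in DSS+BV 3 to 338.5 CPM in DSS 1, and Hoxb13, a marker of the distal colon, was at 0 in DSS+BV 3. Without DSS+BV 3 the log2 fold change of Inhbb was -1.75, and the part of colon position in the results was not tested.

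For 3 of the genes, chosen after their values were seen, other measures were highest in the same library. Inhbb and the enteric neuron and glia markers (8 of 8 in the table, none at 0) both had the order DSS 3, DSS 2, DSS 1 above all DSS+BV mice. The marker sum was 55.2, 96.0 and 202 CPM in the DSS mice, in order, against 38.7, 40.3 and 41.4 CPM in the DSS+BV mice. Its relation to Inhbb was not tested. Tgfb1, Nrros, which encodes an anchor of latent TGF-β1 on macrophages and microglia, and the macrophage and monocyte markers (9 of 9, none at 0) had DSS 3 highest, DSS 1 and DSS+BV 1 next, then DSS 2, DSS+BV 2 and DSS+BV 3. Nrros was at 25.1, 14.6 and 30.8 CPM in DSS mice 1, 2 and 3, against 23.9, 9.11 and 7.52 CPM in DSS+BV mice 1, 2 and 3. The macrophage sum was 723, 426 and 948 CPM in the DSS mice and 582, 281 and 254 CPM in the DSS+BV mice. DSS+BV 1 was above DSS 1 for Tgfb1 and below it for Nrros and the macrophage sum. The B cell and plasma cell sum had the order of Tgfb1 over all libraries. It was 693, 554 and 1656 CPM in the DSS mice and 1181, 268 and 247 CPM in the DSS+BV mice. The part of either sum in the values of Tgfb1 was not tested.

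Inhba shared its 2 highest libraries with Il11, a cytokine gene and TGF-β target. Il11 was at 11.4, 42.8 and 19.2 CPM in DSS mice 1, 2 and 3, against 1.32, 5.48 and 7.78 CPM in DSS+BV mice 1, 2 and 3. Both genes had DSS 2 highest and DSS 3 next. DSS 1 was above every DSS+BV mouse for Il11 and lowest of all for Inhba.

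**Figure D5:**
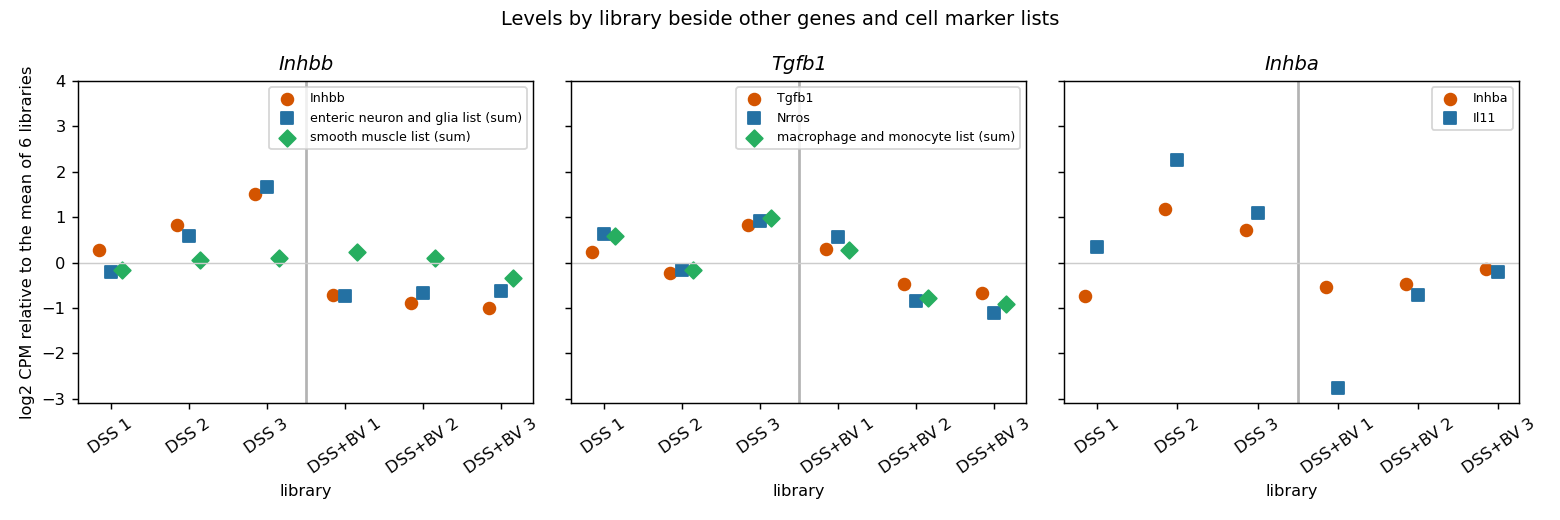
Log2 CPM relative to the mean of the 6 libraries (y axis) in each library (x axis) for Inhbb beside the summed enteric neuron and glia and smooth muscle markers, for Tgfb1 beside Nrros and the summed macrophage and monocyte markers, and for Inhba beside Il11. The neuron and glia sum has the same order of DSS mice as Inhbb, from 1.66 in DSS 3 to -0.21 in DSS 1, while the smooth muscle sum stays between -0.34 and 0.23. The fibroblast sum, which has that order of DSS mice too, is not drawn. The B cell and plasma cell sum, which has the order of Tgfb1 over all libraries, is not drawn either.

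The genes nearest in pattern were sought for the 3 of the 10 with the smallest p-values, by the root mean square difference of centred log2 CPM over the 6 libraries. For Inhbb these were Nsg1, a neuronal endosome gene, at a difference of 0.156, and Kcnj8, a potassium channel gene of pericytes, at 0.168. Nsg1 was at 11.6, 15.2 and 30.6 CPM in DSS mice 1, 2 and 3, against 6.07, 4.14 and 4.43 CPM in DSS+BV mice 1, 2 and 3. For Ltbp1 they were Drp2 (0.0584) and Prex2 (0.0663), and for Tgfbi Drp2 (0.0336) and the endothelial transcription factor gene Erg (0.0521). These distances are over 6 libraries and are given as a description.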

How the data were processed

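Total RNA from the colon of 6 mice was made into libraries with a SMARTER mRNA kit and sequenced on a DNBSEQ instrument. The authors quantified genes with RSEM and deposited expected counts (also called estimated counts) per gene, 1 column per library and without scaling. The submitters' processing notes name HISAT2 2.1.0, Bowtie2 2.2.5, RSEM 1.2.8 and GRCm38.p6. The annotation and the use of strand are not given in the sources used here.

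Expected counts were rounded, filtered with filterByExpr (minimum count 10, minimum total 15), scaled with TMM factors and tested by quasi-likelihood in edgeR (version 4.0.16, R 4.3.3). Adjusted p-values are Benjamini-Hochberg values over all 14579 genes. The biological coefficient of variation was 32.1%. Standard errors are the log2 fold change divided by the root of the F statistic. The study used DESeq2, which served here as an alternative (version 1.42.0). Centred values and ratios are log2 CPM with a prior count of 2. The 10 genes, the pathway list and the marker lists were chosen with earlier results of these data known. Pathway genes were named by a rule of the 3 smallest p-values per role. The edgeR p-values set the group difference against the spread between the mice sequenced, which was estimated with information shared over the tested genes. Those of the ratios rank the observed grouping among all groupings of the libraries. Values of 2 listed genes are not reported here.

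The tests were tried on simulated data, in which unchanged genes made up a larger share of the calls of DESeq2 than of those of edgeR. In the same data edgeR called a smaller share of the changed genes than DESeq2 at every size of change tried. The simulated counts were drawn with the dispersions that edgeR fitted to these data. Alternatives were RLE and upper-quartile factors, no filter or a minimum count of 30, a robust fit, a replicate block, the adjusted p alone, a prior count of 0.5 and each library left out in turn.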

Additional observations from a re-analysis of the deposited data

How the results depend on the processing

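With DESeq2, 1 of the 10 genes (Inhbb), 8 other pathway genes and 280 of all genes were called lower and 45 of all genes higher, against 0, 0, 13 and 0 with edgeR. Under the replicate block, 0 of all genes were called lower. The replicate numbers were not taken as pairs, since the deviations of same-numbered libraries correlated at 0.267, 0.255 and -0.296 (across genes), and not every library correlated best with its own number. With 1 library left out, the genes called lower were between 0 and 3 and those called higher between 0 and 4; none of the 10 genes and no other pathway gene was among them, and 9 or 10 of the 10 had lower fitted values. The fit with DSS+BV 1 left out gave the 4 higher calls. The log2 fold change of Ltbp2 was reversed without DSS 3 (0.25), without DSS+BV 2 (0.19) and without DSS+BV 3 (0.18), and was -1.52 without DSS+BV 1. The other 9 genes kept a negative value in all alternatives, and over all alternatives 136 values of the 10 genes kept direction and side of the threshold, 3 were reversed and 1 moved past it (Inhbb with DESeq2, -1.81). With 1 library left out, the DSS+BV minus DSS difference of the log2 ratio ran from -0.02 to 0.50 for Tgfb2 to Tgfb1, from -0.06 to 0.40 for Tgfb3 to Tgfb1, from 0.69 to 1.36 for Inhba to Inhbb, from 0.02 to 0.48 for Tgfbr1 to Tgfbr2 and from -0.64 to 0.39 for Ltbp2 to Ltbp1. At this depth Ltbp2, with 19 to 104 counts per library, rests on the fewest reads of the 10, and 3 mice per group limit the precision of every value.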
